A study of Mus musculus with 6 samples.

Results

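The MHC class II genes and the invariant chain were followed through single cells of the mouse spinal cord. The set was a fixed list of 8 gene symbols, namely Cd74, H2-Aa, H2-Ab1, H2-Eb1, H2-DMa, H2-DMb1, H2-DMb2 and Ciita, all present among the 17042 genes that the 6 tables share. The assay was Drop-seq, in which beads in droplets capture the polyadenylated RNA of single cells, and each molecule is counted by its unique molecular identifier (UMI). The libraries formed 3 groups of 2. SOD1-Nec libraries came from SOD1-G93A mice given Necrostatin-1s, which blocks the kinase RIPK1, SOD1-Veh libraries from SOD1-G93A mice given vehicle, and WT-Veh libraries from WT mice given vehicle. SOD1-G93A mice carry a mutant human SOD1 transgene and model amyotrophic lateral sclerosis. All groups shared the cell preparation, in which Accutase-digested cords were cleared of myelin and live cells were taken from an OptiPrep gradient. The labels give no age, sex or strain, and say nothing on whether a group's 2 libraries are separate animals, so p-values reflect only how far these libraries differ.

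MHC class II molecules are pairs of an alpha and a beta chain that present peptides to CD4 T cells. H2-Aa and H2-Ab1 encode the chains of the I-A molecule and H2-Eb1 the beta chain of I-E. The invariant chain, encoded by Cd74, holds new pairs together and occupies their groove on the way to endosomes, where H2-DM, made of the products of H2-DMa and of H2-DMb1 or H2-DMb2, exchanges its remnant for peptide. Ciita encodes the coactivator that switches these genes on. B cells and dendritic cells express them without a stimulus. In the resting spinal cord microglia carry little, and macrophages at the borders of the tissue carry more.

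Ciita does not bind DNA itself but docks on factors that sit on a conserved promoter module with an X box and a Y box, of which the Y box bears the inverted CCAAT sequence. Promoter windows in the RefSeq table for the build GRCm38.p6 matched 5 of the 8 members, in 6 windows. The 4 below are those of an I-A chain, an I-E chain and the pair of DM beta genes whose use differed between cells. Each is the 150 bases before the annotated start, 5′ to 3′ on the gene's strand. Capitals mark GATTGG, the core letters of the Y box, or its reverse complement, and AACNGATGATG, here called X-like, the first run of 11 letters (N is any base) that the windows of H2-Eb1, H2-DMb1 and H2-DMb2 share. The search letters were chosen after these promoters had been read, and the match of those 3 genes to the X-like run is by construction.
H2-Aa (chr17:34287824-34287973, minus strand): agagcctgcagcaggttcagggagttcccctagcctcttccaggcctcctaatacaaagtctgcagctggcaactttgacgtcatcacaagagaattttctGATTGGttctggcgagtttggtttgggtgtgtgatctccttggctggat
H2-Eb1 (chr17:34305717-34305866, plus strand): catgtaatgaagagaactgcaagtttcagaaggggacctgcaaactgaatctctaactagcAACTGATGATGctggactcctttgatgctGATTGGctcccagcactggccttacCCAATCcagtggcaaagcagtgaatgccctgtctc
H2-DMb1 (chr17:34153041-34153190, plus strand): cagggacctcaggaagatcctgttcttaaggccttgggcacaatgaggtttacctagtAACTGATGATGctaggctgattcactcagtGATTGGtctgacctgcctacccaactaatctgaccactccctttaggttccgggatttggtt
H2-DMb2 (chr17:34145099-34145248, plus strand): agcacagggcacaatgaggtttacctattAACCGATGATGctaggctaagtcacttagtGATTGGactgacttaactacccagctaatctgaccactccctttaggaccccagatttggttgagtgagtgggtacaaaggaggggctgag

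The GATTGG letters began 49 bases before the start of H2-Aa, 60 before that of H2-Eb1, 62 before that of H2-DMb1 and 91 before that of H2-DMb2, on the gene's strand. H2-Eb1 held a second copy on the other strand, 35 bases before its start. The X-like run lay upstream of GATTGG in H2-Eb1, H2-DMb1 and H2-DMb2, at 89, 92 and 121 bases before the start. No match to the letters of this run was in the window of H2-Aa. The 2 windows of H2-DMa, not printed, held no X-like run, and GATTGG in 1 of them only, 199 bases before the start. Searched on both strands, GATTGG occurred in 5292 of all 32851 promoter windows of 300 bases (16.1%) and the X-like run in 20 (0.0609%). Within the 150 bases before the start the counts were 3595 (10.9%) and 11 (0.0335%). The pair of motifs share no bases in these windows. H2-DMb1 and H2-DMb2 carried both sets of letters at the same mutual distance. The files use the build mm9 and hold no coordinates, so these positions apply to GRCm38.p6 alone.

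After filtering, 3344 cells remained, 661 and 793 in SOD1-Nec, 397 and 432 in SOD1-Veh, and 512 and 549 in WT-Veh. Median depth per cell ranged over the libraries between 526 and 727 UMIs, which is shallow, and levels are therefore given as UMIs of a gene per 10000 UMIs of the cells named. Cells were grouped into 20 clusters without using any class II gene, and clusters were named from marker lists; the names below stand for such cell-like classes. The single Sod1 entry, which does not separate transgene from mouse gene, reached 4447 and 5388 CPM in SOD1-Nec and 4138 and 5312 CPM in SOD1-Veh, against 213 and 179 CPM in WT-Veh. Muscle-like cells were found only in SOD1-Veh (17 and 49 cells), and neuron-like cells numbered 160 in WT-Veh 2 against 7 to 34 in the others. Of 21877 barcode sequences, 25 occurred in more than 1 library, and 1 did so among retained cells.

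The 8 genes gave 4172 UMIs in retained cells, and 613 cells (18.3%) held at least 1. Cd74 supplied 1959 of them, H2-Ab1 711, H2-Aa 607, H2-Eb1 395, H2-DMa 289, H2-DMb2 103, H2-DMb1 96 and Ciita 12. The detectable RNA was concentrated in few cells. Mature B-like cells were 5.53% of cells and held 52.5% of these UMIs. Monocyte-like cells were 9.66% of cells and held 24.1%, microglia-like cells 19.2% and 9.83%, precursor B-like cells 8.85% and 5.85%, and erythroid-like cells 14.6% and 3.95%.

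**Figure D1:**
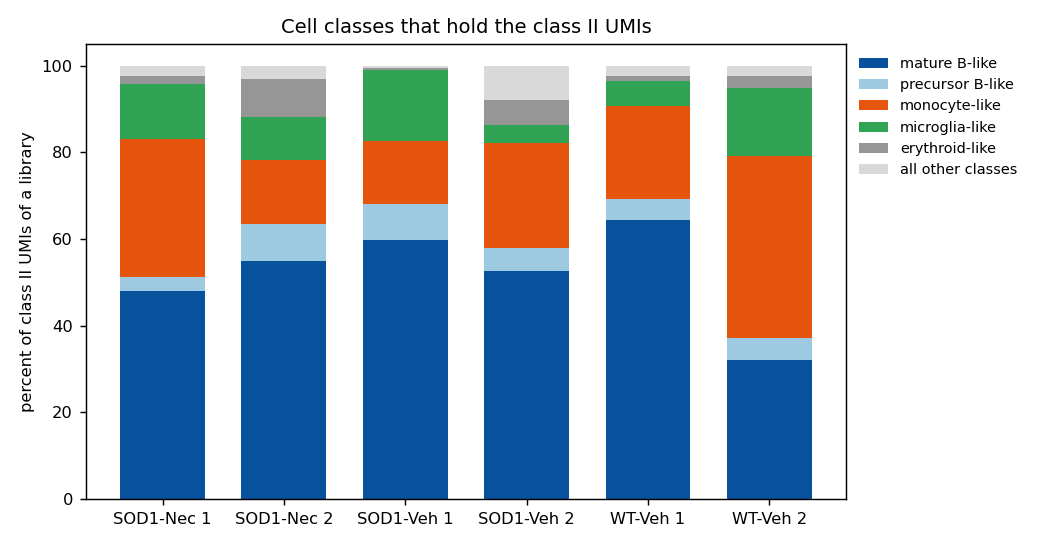
Share of each library's class II UMIs (percent, 8 genes summed) by cell class, for the SOD1-Nec, SOD1-Veh and WT-Veh libraries. Mature B-like cells held between 32.1% and 64.4% in the 6 libraries and monocyte-like cells between 14.7% and 41.9%.

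The share in mature B-like cells was 48.1% and 55.0% in SOD1-Nec, 59.7% and 52.7% in SOD1-Veh, and 64.4% and 32.1% in WT-Veh. In monocyte-like cells it was 31.9% and 14.7% in SOD1-Nec, 14.7% and 24.3% in SOD1-Veh, and 21.3% and 41.9% in WT-Veh. WT-Veh held both the highest and the lowest B-cell share, so the groups overlapped, and WT-Veh 2 was the only library in which monocyte-like cells held more of the RNA than mature B-like cells.

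The marker lists that named the clusters were summed per class. High sums of a list in its own class follow from the naming and are given as a description. The 8 genes of the B-cell list summed to 298 UMIs per 10000 in mature B-like cells against 7.97 in other cells, and to 103 against 11.8 in precursor B-like cells. The microglial list reached 188 per 10000 in microglia-like cells against 6.03 in other cells, and the monocyte list 127 in monocyte-like cells against 5.21. Microglia-like cells formed 2 clusters, the larger of which (482 of 642 cells) was led by the chemokine and immediate early genes Ccl3, Ccl4, Ccl12, Jun, Atf3 and Egr1. It held 6.96 class II UMIs per 10000 and a UMI in 29.9% of cells. The smaller one (160 cells, led by Lrrc3, Ly86 and Trem2) held 14.0 per 10000 and a UMI in 20.6% of cells, and 5 cells held 67.3% of its 110 UMIs. The smaller cluster was the higher one in the SOD1-G93A libraries and the lower one in both WT-Veh libraries (3.36 and 4.86, against 5.00 and 9.94 in the larger). The smaller cluster held only 2 and 4 UMIs in 12 and 15 cells of WT-Veh, and 6 UMIs in 13 cells of SOD1-Veh 2. In the larger cluster 1 cell held 40 of the 81 UMIs of WT-Veh 2. Such counts are too few to read a difference between groups.

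**Figure D2:**
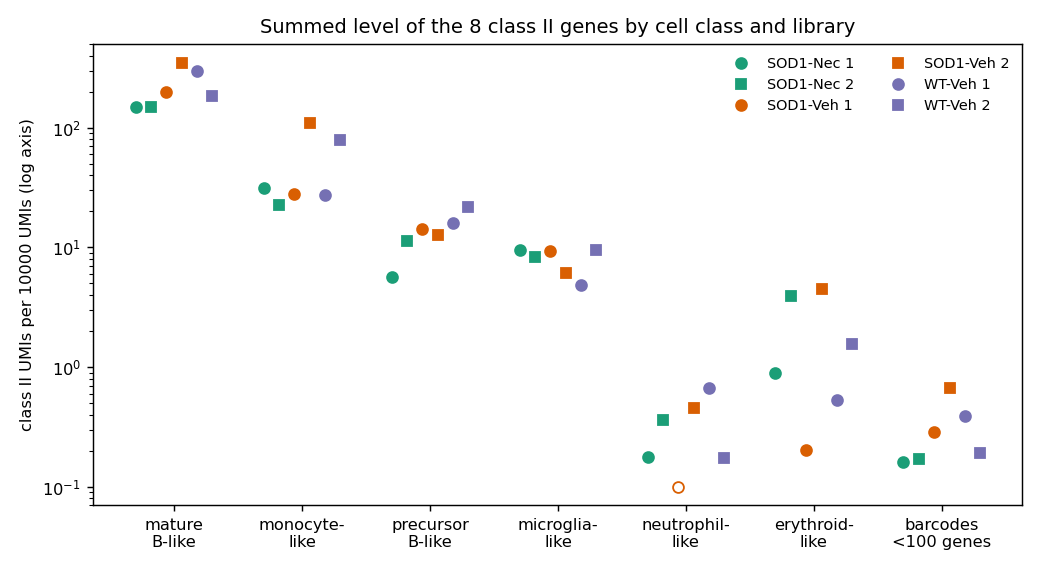
Summed level of the 8 genes (UMIs per 10000 UMIs of the class, log axis) per library in each cell class and in barcodes with fewer than 100 genes. Each point is a library and the open circle drawn at 0.1 stands for SOD1-Veh 1 neutrophil-like cells, which held none. Mature B-like cells lay between 148 and 346 and neutrophil-like cells at or below 0.663.

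In mature B-like cells the 8 genes together reached 148 and 148 UMIs per 10000 in SOD1-Nec, 198 and 346 in SOD1-Veh, and 300 and 185 in WT-Veh. These 185 cells, led by Igj, Igkc, Ms4a1, Ighm and Faim3, lay above every other class in every library. In monocyte-like cells the summed level was 31.6 and 22.5 in SOD1-Nec, 27.8 and 110 in SOD1-Veh, and 27.2 and 79.2 in WT-Veh. Microglia-like cells gave 9.44 and 8.30 in SOD1-Nec, 9.40 and 6.09 in SOD1-Veh, and 4.88 and 9.47 in WT-Veh. Precursor B-like cells, which still rearrange or have just rearranged their antigen receptor genes, gave 5.65 and 11.4 in SOD1-Nec, 14.3 and 12.8 in SOD1-Veh, and 16.0 and 21.7 in WT-Veh. WT-Veh 2 owed 40 of its 85 microglia-like UMIs to 1 cell. Without the richest cell of each library microglia-like cells stood at 6.08 and 6.72 in SOD1-Nec, 7.29 and 5.75 in SOD1-Veh, and 4.03 and 5.06 in WT-Veh, so that WT-Veh lay below both other groups. Monocyte-like cells lay above microglia-like cells in all 6 libraries, while precursor B-like and microglia-like cells overlapped and their order is not settled by the spread.

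Neutrophil-like cells, which should lack class II, served as a background. They held 0.179 and 0.364 UMIs per 10000 in SOD1-Nec, 0 and 0.454 in SOD1-Veh, and 0.663 and 0.174 in WT-Veh. Barcodes with fewer than 100 genes, taken as free RNA, held 0.161 and 0.170 in SOD1-Nec, 0.288 and 0.666 in SOD1-Veh, and 0.391 and 0.190 in WT-Veh. These measures of background stayed below 0.7 per 10000, under every library of the B-like, monocyte-like and microglia-like classes. Erythroid-like cells had also been chosen as a background and were above 0.7 in most libraries. They held 0.897 and 3.93 in SOD1-Nec, 0.202 and 4.50 in SOD1-Veh, and 0.528 and 1.57 in WT-Veh. Astrocyte-like cells held 1 class II UMI in 125 cells and oligodendrocyte precursor-like cells none. Erythroid-like cells formed 2 clusters. Over all libraries, the cluster of 265 cells held 0.241 UMIs per 10000 and that of 223 cells, led by Hba-a2, Fam220a and Bpgm, held 6.50, with libraries between 0.667 and 16.3. In SOD1-Veh 2 (16.3) and SOD1-Nec 2 (12.1) the latter cluster lay above microglia-like cells (6.09 and 8.30). In that cluster 5 cells held 67.8% of 152 UMIs, and SOD1-Veh 2 stood at 3.94 without 1 cell of 45 UMIs. Of its 8 cells with at least 5 class II UMIs, 4 also held RNA of the B-cell list. In T and NK-like cells 66 of 78 UMIs came from 1 cell of SOD1-Veh 2, so their pooled level of 11.5 describes that cell.

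The share of cells with at least 1 of these UMIs was 92.4% in mature B-like cells, at a median depth of 464 UMIs. It was 28.5% in monocyte-like cells (median depth 565), 27.6% in microglia-like cells (592.5) and 27.4% in precursor B-like cells (495.5), against 2.44% in neutrophil-like cells (667.5). When every cell was thinned to 500 UMIs and shallower cells were left out, the shares were 92.1%, 25.3%, 22.1% and 21.8% in the same classes, against 0.962% in neutrophil-like cells. Thinning removed 109 of 185 mature B-like, 141 of 323 monocyte-like, 249 of 642 microglia-like, 149 of 296 precursor B-like and 98 of 410 neutrophil-like cells. A similar share of positive cells in monocyte-like and microglia-like cells thus went with unlike amounts per class.

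**Figure D3:**
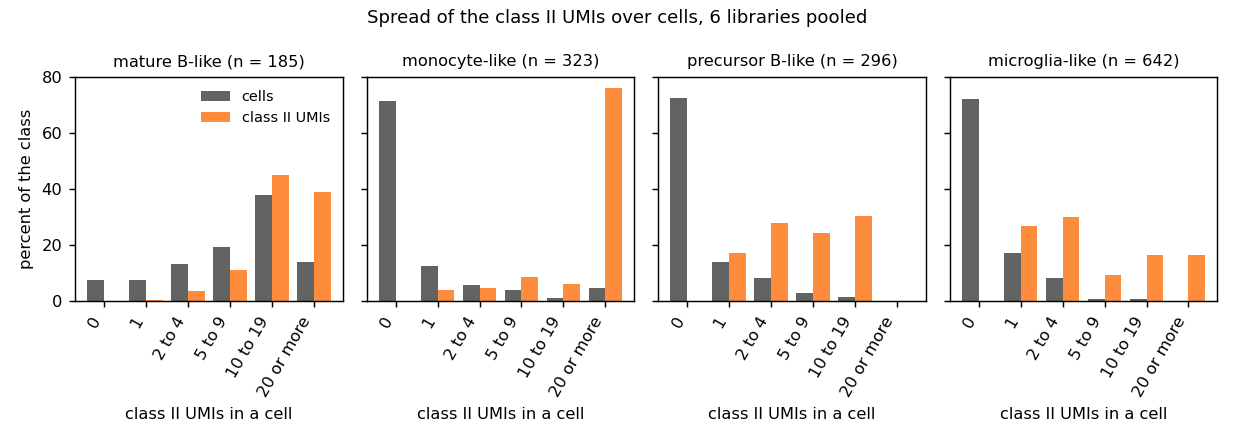
Percent of cells (grey) and percent of class II UMIs (orange) of a class by the number of class II UMIs in a cell (8 genes summed, libraries pooled), for mature B-like, monocyte-like, precursor B-like and microglia-like cells. The median mature B-like cell held 10 UMIs, and the median cell of the other 3 classes held 0.

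In mature B-like cells the RNA was spread over most cells. The median cell held 10 UMIs of the set, and 96 of 185 cells held at least 10. Monocyte-like cells differed in this respect. Of 323 cells, 231 held none, 15 cells with at least 20 UMIs held 76.3% of the class total, and the top 5 cells held 47.8%. The richest cell of each library held 33 and 41 UMIs in SOD1-Nec, 37 and 109 in SOD1-Veh, and 54 and 198 in WT-Veh. Without that cell the monocyte-like level was 26.5 and 15.04 per 10000 in SOD1-Nec, 14.6 and 65.7 in SOD1-Veh, and 17.1 and 10.2 in WT-Veh. The high WT-Veh 2 value therefore rested on 1 cell, and SOD1-Veh 2 stayed the highest library without its richest cell.

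The 32 monocyte-like cells with at least 5 UMIs were set beside the 231 with none. Ccr2, the receptor that brings monocytes out of the marrow, was detected in 28 of the 32 and in 134 of the 231, while the monocyte list as a whole stood at 108 UMIs per 10000 in the 32 and 128 in the 231. Cd209a, a lectin of monocyte-derived dendritic cells, was found in 8 of the 32 and in 0 of the 231. At least 1 gene of the dendritic cell list was found in 10 of the 32 and in 7 of the 231, and at least 1 of the border macrophage list in 7 and in 1. Genes of the B-cell list occurred in 5 of the 32 and in 23 of the 231. The rich cells were picked by their class II UMIs and tend to be deep, so these are counts without a test.

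When class II genes were left in the clustering, 34 cells formed a cluster of their own, 9 and 11 in SOD1-Nec, 3 and 6 in SOD1-Veh, and 2 and 3 in WT-Veh. They held 1039 class II UMIs, 24.9% of the total, at 419 per 10000, and 26 of them came from the monocyte-like class, 5 from the microglia-like and 3 from the erythroid-like class. All 34 held Cd74 and H2-Ab1 RNA, Ccr2 was found in 25, Cd209a in 9, Mrc1 in 5 and Ms4a7 in 4, while none held Tmem119, P2ry12, Sall1, Cd79a, Ms4a1 or Pax5. These few cells held 37.5% of all H2-Eb1 UMIs, 34.9% of H2-Ab1, 32.5% of H2-Aa and 21.3% of Cd74, but 5.54% of H2-DMa and 0.971% of H2-DMb2. The cluster was chosen by the genes it is described with, so its levels support nothing further. In that clustering the remaining monocyte-like cells stood at 5.62 and 3.81 per 10000 in SOD1-Nec, 5.27 and 3.74 in SOD1-Veh, and 12.3 and 4.84 in WT-Veh. Microglia-like cells stood at 5.03 and 5.54 in SOD1-Nec, 7.09 and 6.21 in SOD1-Veh, and 4.07 and 4.83 in WT-Veh. In that clustering monocyte-like cells lay below microglia-like cells in 3 of 6 libraries and level with them in WT-Veh 2. The rich cells were set apart by class II genes and came mostly from the monocyte-like class, so its level falls by construction. With only the richest cell of each library left out, monocyte-like cells stayed above microglia-like cells in all 6 libraries, for example at 10.2 against 5.06 in WT-Veh 2.

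Cd74 gave the most UMIs of the 8 genes, and its pooled level had the order mature B-like (113 per 10000), monocyte-like (16.5), precursor B-like (6.14) and microglia-like cells (2.35). In mature B-like cells it reached 64.6 and 71.3 UMIs per 10000 in SOD1-Nec, 102 and 226 in SOD1-Veh, and 153 and 121 in WT-Veh, and 90.3% of cells held it. In monocyte-like cells it was 11.4 and 8.61 in SOD1-Nec, 11.9 and 39.9 in SOD1-Veh, and 10.3 and 39.2 in WT-Veh, with 17.3% of cells positive. SOD1-Nec held the lowest mature B-like values and did not overlap with either other group there, whereas in monocyte-like cells the replicate 2 libraries of SOD1-Veh and WT-Veh stood well above the other 4.

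In precursor B-like cells Cd74 was 2.54 and 5.10 per 10000 in SOD1-Nec, 7.48 and 5.43 in SOD1-Veh, and 10.49 and 13.7 in WT-Veh. The 3 groups did not overlap, but SOD1-Nec and SOD1-Veh did in CPM with TMM factors. In microglia-like cells Cd74 was 3.03 and 2.63 in SOD1-Nec, 2.72 and 1.98 in SOD1-Veh, and 0.625 and 2.90 in WT-Veh. WT-Veh held both a low and a high library, so the groups overlapped, and the high one is the library in which 1 cell held 40 class II UMIs. The share of microglia-like cells with a Cd74 UMI was 8.06% and 7.24% in SOD1-Nec, 10.47% and 10.1% in SOD1-Veh, and 1.94% and 4.08% in WT-Veh, against shares after thinning to 500 UMIs of 4.62% and 8.11% in SOD1-Nec, 7.69% and 3.64% in SOD1-Veh, and 1.59% and 4.23% in WT-Veh. The thinned shares of SOD1-Veh and WT-Veh overlapped, and those of SOD1-Nec and WT-Veh did not.

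The I-A chains had the same order of classes as Cd74. H2-Aa was at 30.1 UMIs per 10000 of mature B-like, 7.46 of monocyte-like, 1.70 of precursor B-like and 0.451 of microglia-like cells with libraries pooled, and H2-Ab1 at 32.6, 8.93, 2.55 and 0.843. By library, H2-Aa, the alpha chain, reached 21.9 and 23.0 UMIs per 10000 of mature B-like cells in SOD1-Nec, 33.2 and 41.2 in SOD1-Veh, and 48.8 and 18.3 in WT-Veh. H2-Ab1, the beta chain, reached 27.8 and 27.0 in SOD1-Nec, 29.3 and 43.8 in SOD1-Veh, and 52.4 and 18.3 in WT-Veh. For both chains WT-Veh 1 was the highest and WT-Veh 2 the lowest of the 6 libraries, so the SOD1-G93A groups lay within the WT-Veh range. H2-Eb1, the I-E beta chain, gave 21.4 and 14.8 in SOD1-Nec, 24.8 and 15.9 in SOD1-Veh, and 28.3 and 22.5 in WT-Veh, where SOD1-Nec lay just below WT-Veh per 10000 but overlapped with it in CPM with TMM factors, and SOD1-Veh overlapped with both.

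In monocyte-like cells H2-Ab1 was 5.62 and 5.43 per 10000 in SOD1-Nec, 5.57 and 28.1 in SOD1-Veh, and 6.41 and 15.2 in WT-Veh. H2-Eb1 was 3.53 and 2.25 in SOD1-Nec, 1.48 and 19.3 in SOD1-Veh, and 2.92 and 8.13 in WT-Veh. As with Cd74, the replicate 2 libraries of SOD1-Veh and WT-Veh were high, and SOD1-Nec overlapped with the SOD1-Veh range for both chains. In microglia-like cells H2-Ab1 was 1.94 and 1.21 in SOD1-Nec, 0.566 and 0.142 in SOD1-Veh, and 0.125 and 0.891 in WT-Veh. These were 16 and 12 UMIs in SOD1-Nec, 5 and 1 in SOD1-Veh, and 1 and 8 in WT-Veh. SOD1-Nec lay above both vehicle groups without overlap, on UMIs of 4 cells in each of its libraries. H2-Aa in these cells gave 7 and 7 UMIs in SOD1-Nec, 5 and 0 in SOD1-Veh, and 0 and 4 in WT-Veh, and H2-Eb1 gave 6 and 4, 5 and 0, and 1 and 7 UMIs in the SOD1-Nec, SOD1-Veh and WT-Veh libraries. Such counts are too few to order the groups.

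H2-DMa and H2-DMb1 were distributed otherwise, and were less concentrated in mature B-like cells. Pooled, H2-DMb1 was at 1.24 UMIs per 10000 of mature B-like, 0.856 of monocyte-like and 0.863 of microglia-like cells. H2-DMb2, like Cd74, lay far higher in mature B-like cells, at a pooled 6.95 against 0.599 in precursor B-like cells. It was at 0.122 in monocyte-like and 0.157 in microglia-like cells, on 3 and 8 UMIs. H2-DMa was found at 2.18 and 2.43 UMIs per 10000 of microglia-like cells in SOD1-Nec, 4.08 and 3.26 in SOD1-Veh, and 2.75 and 2.79 in WT-Veh, against a pooled 3.52 in mature B-like and 2.24 in monocyte-like cells. It was detected in more microglia-like cells than any other member, in 11.3% and 13.8% in SOD1-Nec, 27.9% and 21.5% in SOD1-Veh, and 16.5% and 16.3% in WT-Veh. After thinning the shares were 10.8% and 12.2% in SOD1-Nec, 16.9% and 14.5% in SOD1-Veh, and 15.9% and 9.86% in WT-Veh. SOD1-Veh had the highest level and share without overlap, and the thinned shares of SOD1-Veh and WT-Veh overlapped. EdgeR called H2-DMa in no comparison of these cells (adjusted p = 0.731 in SOD1-Veh against WT-Veh). How many of all genes separate 2 libraries from 2 in this way was not counted. A lack of overlap is therefore a description, for this gene and for the other members in every class.

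Drop-seq reads the 3′ end of each molecule, so levels of different genes are set against each other here as ratios compared between classes. H2-DMa as a share of H2-DMa and Cd74 UMIs was 41.9% and 48.0% of microglia-like UMIs in SOD1-Nec, 60% and 62.2% in SOD1-Veh, and 81.5% and 49.0% in WT-Veh. In mature B-like cells the same share was 1.52% and 5.65% in SOD1-Nec, 4.27% and 1.66% in SOD1-Veh, and 3.57% and 0.877% in WT-Veh. It was higher in microglia-like cells in 6 of 6 libraries, by 54.2 percentage points on average (lowest 40.3, highest 77.9). An exact paired permutation test over the 6 libraries, two-sided, gave p = 0.03125, which is the smallest that 6 pairs allow and is unchanged by adjustment over the 2 such tests run. Both quantities were chosen for testing after their values had been seen.

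Cells were also counted by the members they held. Of 109 microglia-like cells with an H2-DMa UMI, 95 (87.2%) held no UMI of Cd74 or of an A or E chain. In monocyte-like cells this was so for 27 of 46 (58.7%) and in mature B-like cells for 1 of 30 (3.33%). At this depth a cell without a UMI may still carry the RNA. A Cd74 UMI was held by 44 of all 642 microglia-like, 56 of 323 monocyte-like and 167 of 185 mature B-like cells. An A or E chain UMI was held by 19, 38 and 144 of them. The counts of cells without these UMIs thus follow largely from how rare they are in a class, and do not add to the ratios above. Of cells with an A or E chain UMI, 141 of 144 mature B-like cells also held Cd74 (97.9%), as did 34 of 38 monocyte-like cells (89.5%), 12 of 19 microglia-like cells (63.2%) and 20 of 41 precursor B-like cells (48.8%).

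**Figure D4:**
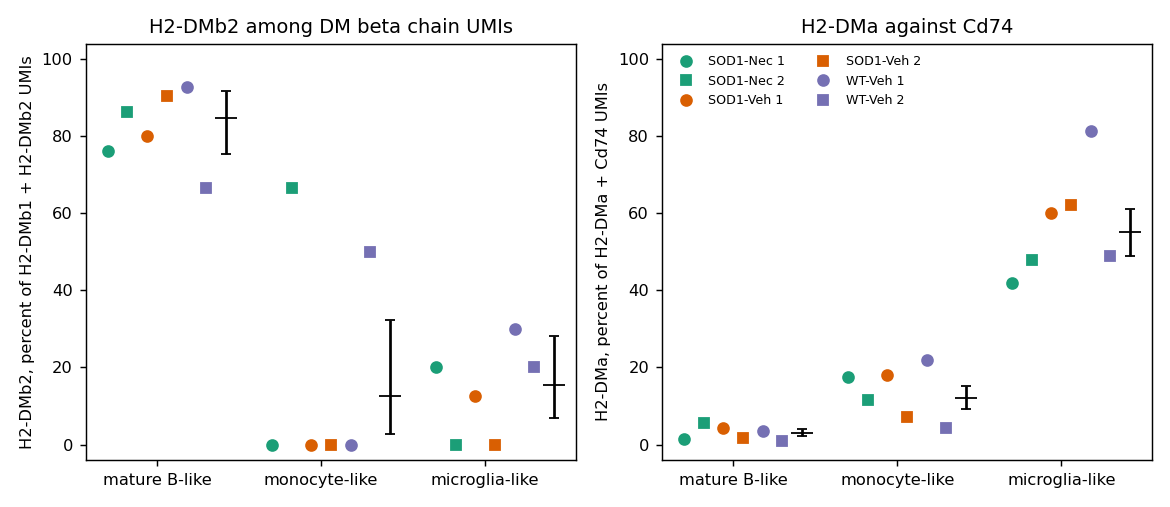
H2-DMb2 as a percent of H2-DMb1 and H2-DMb2 UMIs, and H2-DMa as a percent of H2-DMa and Cd74 UMIs, by cell class. Points are libraries, bars the libraries pooled with 95% Clopper-Pearson intervals for counting error; H2-DMb2 made up 84.9% of DM beta UMIs in mature B-like cells and 15.4% in microglia-like cells.

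The choice of DM beta gene differed between classes. H2-DMb2 made up 76.2% and 86.4% of H2-DMb1 and H2-DMb2 UMIs of mature B-like cells in SOD1-Nec, 80% and 90.5% in SOD1-Veh, and 92.9% and 66.7% in WT-Veh. In microglia-like cells it made up 20% and 0% in SOD1-Nec, 12.5% and 0% in SOD1-Veh, and 30% and 20% in WT-Veh. The shares of mature B-like cells rest on 21 and 22 UMIs in SOD1-Nec, 5 and 21 in SOD1-Veh, and 14 and 3 in WT-Veh. Those of microglia-like cells rest on 5 and 9 UMIs in SOD1-Nec, 8 and 5 in SOD1-Veh, and 10 and 15 in WT-Veh. Pooled, the share was 73 of 86 UMIs (84.9%, Clopper-Pearson 95% interval 75.5 to 91.7) in mature B-like cells and 8 of 52 (15.4%, 6.88 to 28.1) in microglia-like cells. It was 12 of 17 (70.6%) in precursor B-like and 3 of 24 (12.5%) in monocyte-like cells. Mature B-like cells lay above microglia-like cells in 6 of 6 libraries, by 68.3 points on average (lowest 46.7, highest 90.5). The exact paired permutation test, two-sided, gave p = 0.03125 before and after adjustment, the smallest that 6 pairs allow. This share too was chosen for testing after its values had been seen, so the p-value is no independent support.

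H2-DMb1 and H2-DMb2 are near copies, with 93.9% identity over 1255 aligned bases of their GENCODE vM21 transcripts, and how the authors' counting shared reads between them is not given in the sources used here. Over the last 300 bases, the region that a 3′ tag reads, identity was 70.7% over 266 aligned bases with no identical run longer than 23. Any reads given to the wrong copy would bear on the split and not on the sum of the pair.

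Ciita was nearly undetected, at 12 UMIs in all. Of these, 9 came from 7 mature B-like cells (0.856 per 10000), 2 from monocyte-like and 1 from microglia-like cells. In 5 of the 6 microglia-like libraries it was at 0, where 3 counts, the limit that a count of 0 allows, would be between 0.304 and 0.425 per 10000. Its level could not be compared between groups at this depth.

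**Figure D5:**
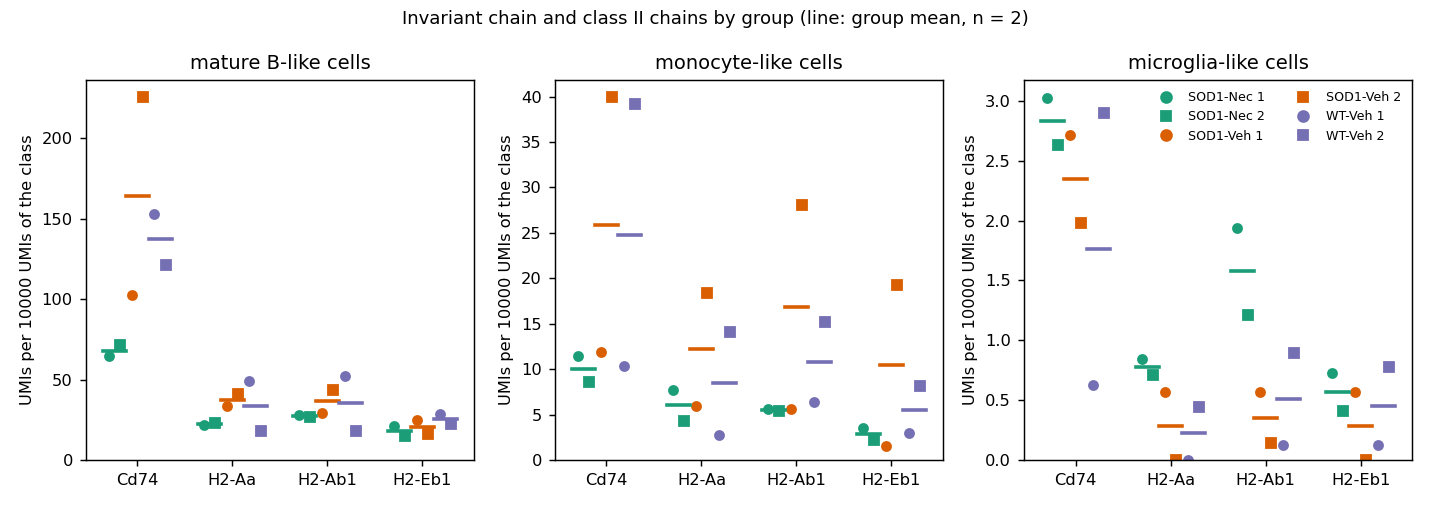
UMIs per 10000 of Cd74, H2-Aa, H2-Ab1 and H2-Eb1 in mature B-like, monocyte-like and microglia-like cells (a scale each) of the SOD1-Nec, SOD1-Veh and WT-Veh groups. Points are libraries (2 a group) and lines are group means; Cd74 in mature B-like cells lay at 64.6 and 71.3 in SOD1-Nec, below the 4 vehicle libraries at 102 to 226.

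The 3 groups were compared on UMIs summed per library and class, with the quasi-likelihood test of edgeR and Benjamini-Hochberg adjustment over all genes of a fit. No member passed an adjusted p of 0.05 in any of 21 fits by class and comparison, and DESeq2 called none either. Each group enters 2 of the 3 comparisons, so the comparisons share libraries. Over all retained cells the summed level of the 8 genes was 11.6 and 12.5 per 10000 in SOD1-Nec, 11.8 and 22.2 in SOD1-Veh, and 11.8 and 10.6 in WT-Veh. SOD1-Veh 2 stood above the other 5 libraries, which were close to each other. In such sums fewer cells of a type and less RNA per cell cannot be told apart.

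Over all cells 7 members could be tested, all except Ciita. EdgeR called 0 of the 7 in SOD1-Veh against WT-Veh, beside 0.841% of all genes, 0 of the 7 in SOD1-Nec against SOD1-Veh (0.587% of all genes), and 0 of 7 in SOD1-Nec against WT-Veh (0.04%). At an unadjusted p under 0.05 the counts were 1, 1 and 0. The median log2 fold change of the 7 was 0.57 in SOD1-Veh against WT-Veh, -0.34 in SOD1-Nec against SOD1-Veh and 0.31 in SOD1-Nec against WT-Veh, beside medians of 0.01, -0.01 and -0.01 over all genes. The smallest p values belonged to H2-Aa in the first comparison (0.76 ± 0.33 SE, edgeR adjusted p = 0.425) and to Cd74 in the second (-0.84 ± 0.35, edgeR adjusted p = 0.645). Without SOD1-Veh 2 the Cd74 value shrank to -0.11.

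B-like cells, which carry most of this RNA, were 17.5 ± 2.04% of cells in SOD1-Nec, 16.8 ± 2.07% in SOD1-Veh and 8.08 ± 2.66% in WT-Veh (SD, n = 2 each). Mature B-like cells alone were 6.20% and 6.05% in SOD1-Nec, 7.05% and 7.41% in SOD1-Veh, and 3.91% and 2.91% in WT-Veh. Both SOD1-G93A groups lay above WT-Veh without overlap, whereas the summed level over all cells differed little between 5 of the 6 libraries. These are shares of retained cells, and WT-Veh 2 held 160 neuron-like cells among them. The retained cells also included 488 erythroid-like, 410 neutrophil-like and 44 myeloid progenitor-like cells. Whether the B-like cells came from the cord tissue itself was not tested. Over cells other than B-like ones 6 members were tested and edgeR called 0 in SOD1-Veh against WT-Veh (0.697% of all genes called), 0 in SOD1-Nec against SOD1-Veh (0.526%) and 0 in SOD1-Nec against WT-Veh (0.0284%). None reached an unadjusted p under 0.05 there. The median log2 fold changes of the members were 0.59, -0.48 and 0.07. Over all genes the median lay between -0.04 and 0.05 in every fit of this and the following classes.

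In B-like cells as a whole edgeR called 0 of 6 members in SOD1-Veh against WT-Veh (0.194% of all genes called), 0 in SOD1-Nec against SOD1-Veh (0.485%) and 0 in SOD1-Nec against WT-Veh (0.291%). Unadjusted, 0, 1 and 2 passed. Mature cells, which hold most of this RNA, were 38.7% and 32% of B-like cells in SOD1-Nec, 45.9% and 40.5% in SOD1-Veh, and 39.2% and 47.1% in WT-Veh, lowest in SOD1-Nec without overlap. The part of this share in the values that follow was not tested. The medians were -0.23, -0.29 and -0.59, and all 6 members were below 0 in SOD1-Nec against WT-Veh. Cd74 had a log2 fold change of -1.16 ± 0.32 there (SE, edgeR adjusted p = 0.277) and of -0.93 ± 0.31 against SOD1-Veh (edgeR adjusted p = 0.227). H2-Aa followed with -0.67 ± 0.32 against WT-Veh (edgeR adjusted p = 0.573), and turned to 0.30 when WT-Veh 1 was left out.

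In mature B-like cells edgeR called 0 of 5 members in SOD1-Veh against WT-Veh (0.398% of all genes called), 0 in SOD1-Nec against SOD1-Veh (2.39%) and 0 in SOD1-Nec against WT-Veh (2.39%). Unadjusted, 0, 1 and 1 passed, each time Cd74, and the medians were 0.27, -0.41 and -0.36. Cd74 had a log2 fold change of -1.27 ± 0.40 in SOD1-Nec against SOD1-Veh (SE, edgeR adjusted p = 0.146) and of -0.85 ± 0.40 in SOD1-Nec against WT-Veh (edgeR adjusted p = 0.531). The first was called without SOD1-Veh 1 (-1.75, edgeR adjusted p = 0.0464) and shrank to -0.50 without SOD1-Veh 2. All 5 members had values below 0 in SOD1-Nec against SOD1-Veh, of which H2-DMb2 was the nearest to 0 at -0.06.

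In precursor B-like cells Cd74 alone was abundant enough to test. EdgeR did not call it in SOD1-Veh against WT-Veh (0.15% of all genes called), in SOD1-Nec against SOD1-Veh (0.9%) or in SOD1-Nec against WT-Veh (0.3%). Unadjusted it passed in the last of these, with a log2 fold change of -1.37 ± 0.45 (SE, edgeR adjusted p = 0.350), beside -0.78 and -0.59 in the other comparisons. Mature and precursor B-like cells were tested apart with 15 rather than 20 cells required in every library, because WT-Veh 2 held 16 and 18 of them.

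In monocyte-like cells edgeR called 0 of 5 members in SOD1-Veh against WT-Veh (0.942% of all genes called), 0 in SOD1-Nec against SOD1-Veh (1.06%) and 0 in SOD1-Nec against WT-Veh (0.118%). Unadjusted, 0, 3 and 1 passed, and the medians were 0.68, -1.27 and -0.70. Against SOD1-Veh all 5 members had values below 0 in SOD1-Nec, led by H2-Ab1 at -1.50 ± 0.47 (SE, edgeR adjusted p = 0.149), H2-Eb1 at -1.70 ± 0.63 (0.285) and Cd74 at -1.27 ± 0.47 (0.285). These values depended on 1 library. Without SOD1-Veh 2 they were 0.13 for H2-Ab1, 1.10 for H2-Eb1 and -0.10 for Cd74, and without SOD1-Veh 1 they were -2.24, -2.61 and -1.88, all past the threshold. H2-Ab1 was also called without any 1 of the SOD1-Nec and WT-Veh libraries (-1.54 to -1.44), Cd74 without SOD1-Nec 1 (-1.51), WT-Veh 1 (-1.28) or WT-Veh 2 (-1.21), and H2-Eb1 without SOD1-Nec 1 (-2.1), WT-Veh 1 (-1.72) or WT-Veh 2 (-1.64), and H2-Aa without SOD1-Veh 1 (-1.49). In SOD1-Veh against WT-Veh, H2-Aa was called without WT-Veh 2 (2.08), and H2-Ab1 (1.46) and H2-Eb1 (1.92) without SOD1-Veh 1. Cd74 in SOD1-Nec against WT-Veh was -1.14 ± 0.45 (edgeR adjusted p = 0.442) and 0.05 without WT-Veh 2, while it was called without WT-Veh 1 (-1.88), SOD1-Veh 1 (-1.12) or SOD1-Veh 2 (-1.10). H2-Ab1 was called there without WT-Veh 1 (-1.37). As shown above, a few rich cells supply most of the class II RNA of this class, and 109 UMIs of SOD1-Veh 2 and 198 of WT-Veh 2 came from 1 cell each.

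In microglia-like cells 3 members were tested, Cd74, H2-Ab1 and H2-DMa. EdgeR called 0 of 3 in SOD1-Veh against WT-Veh (1.56% of all genes called), 0 in SOD1-Nec against SOD1-Veh (3.62%) and 0 in SOD1-Nec against WT-Veh (5.75%). Unadjusted, 0, 1 and 1 passed, H2-Ab1 in both cases, with medians of 0.40, 0.29 and 0.68. H2-Ab1 had a log2 fold change of 2.07 ± 0.82 in SOD1-Nec against SOD1-Veh (SE, edgeR adjusted p = 0.182) and of 1.59 ± 0.76 in SOD1-Nec against WT-Veh (edgeR adjusted p = 0.230), on the 43 UMIs given above. Cd74 was 0.40 ± 0.43 in SOD1-Veh against WT-Veh (edgeR adjusted p = 0.825) and 0.68 ± 0.41 in SOD1-Nec against WT-Veh (edgeR adjusted p = 0.351). It was called in SOD1-Nec against WT-Veh without WT-Veh 2 (2.16, edgeR adjusted p = 0.0253). With doublets kept, Cd74 was called in SOD1-Veh against WT-Veh (1.61, edgeR adjusted p = 0.000832) and H2-Ab1 in SOD1-Nec against WT-Veh (1.79, edgeR adjusted p = 0.0195), and a mitochondrial limit of 10% gave a call of Cd74 in SOD1-Nec against WT-Veh (2.21, edgeR adjusted p = 0.00353). With class II genes kept for clustering, so that rich cells left the class, Cd74 was called in SOD1-Veh against WT-Veh (2.57, edgeR adjusted p = 0.0126) and in SOD1-Nec against WT-Veh (2.37, edgeR adjusted p = 0.0142). H2-DMa was -0.63 ± 0.34 in SOD1-Nec against SOD1-Veh (edgeR adjusted p = 0.414).

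A list of 37 other symbols of the class II pathway was read off the same fits, 33 of which are in the tables. EdgeR tested 27 over all cells, 23 over cells other than B-like ones, 9 in B-like, 2 in mature B-like, 3 in precursor B-like, 7 in monocyte-like and 14 in microglia-like cells. The 1 call was Ifngr1, the ligand-binding chain of the interferon gamma receptor, in microglia-like cells, 1 of 14 pathway genes beside 5.75% of all genes in that fit, which is no result about the list. It stood at 292 and 231 CPM in SOD1-Nec, 411 and 489 CPM in SOD1-Veh, and 520 and 482 CPM in WT-Veh, and was lower in SOD1-Nec than in WT-Veh (log2 fold change -0.996 ± 0.313 SE, edgeR adjusted p = 0.0409). The SOD1-Nec libraries lay below the other 4. DESeq2 did not call it (adjusted p = 0.728), and edgeR did not when SOD1-Nec 1 (-1.12), SOD1-Nec 2 (-0.82), WT-Veh 1 (-0.93) or WT-Veh 2 (-1.06) was left out.

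The genes that act on class II differed by class as well. H2-Oa and H2-Ob, whose products form the inhibitor H2-DO of H2-DM, were at 2.09 and 4.57 UMIs per 10000 in mature B-like cells against 0.431 and 0.333 in microglia-like cells. Ctss, the protease that trims the invariant chain, was at 6.28 in mature B-like, 16.2 in monocyte-like and 70.8 in microglia-like cells. Legumain (Lgmn) and cathepsin L (Ctsl), endosomal proteases, were at 21.8 and 15.8 in microglia-like cells, against 0.761 and 0.571 in mature B-like cells. Ifi30, the endosomal thiol reductase, was at 5.14 in monocyte-like cells, 2.00 in mature B-like and 1.10 in microglia-like cells. The RFX subunits Rfx5, Rfxap and Rfxank, which bind the X box, stayed at or below 0.25 per 10000 in every class shown, so their order cannot be read. All of these are levels by class, given as a description without a test.

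By the pattern over 47 sums of a class in a library, in 11 classes, the genes most like the summed members included Rpl13 (r = 0.904), Rpl17 (0.892), Rpl34 (0.888), Rps19 (0.874), Il2rg (0.870), Rpl32 (0.868) and Rnase6 (0.864), among 4482 genes. These are Pearson correlations of log2 (CPM + 10), given as a description. The points share their libraries, and 5 of these 7 genes encode ribosomal proteins, which vary in amount with cell type at large. Il2rg, the shared chain of several cytokine receptors, was at 4.19 UMIs per 10000 in mature B-like cells against 0.412 in microglia-like cells.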

How the data were processed

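Spinal cord cells of 6 Drop-seq libraries were analysed. The deposited values are UMI counts per gene symbol and barcode, not normalized; the build is mm9, per the submitters' processing notes, and aligner and annotation are not stated there. The tables numbered replicate 1 list 18169 genes and those numbered replicate 2 list 18650, and the 17042 shared genes were used. Total UMIs ranged from 1508618 to 1767205 per library, and sums over retained cells from 432928 to 652290.

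Barcodes with at least 200 genes and at most 20% mitochondrial UMIs were kept (3360 of 21919). Scrublet, in scanpy 1.11.5, marked 16 as doublets, which were removed. Counts scaled to 10000 per cell and log-transformed were clustered (2000 variable genes, 30 components, 15 neighbours, Leiden by leidenalg 0.10.2 at resolution 1) with 11 class II genes left out. A cluster took the name of its best marker list if at least 3 markers were detected and the list stood at least 2 log2 units above the clusters that took another list, and 1 above all other cells. These limits were set after the data had been seen. Members, gene lists and the comparisons shown were chosen with earlier results of these data known.

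UMI counts were summed per library and class, over classes with at least 20 cells in every library, and tested in edgeR 4.0.16 by its quasi-likelihood F test (R 4.3.3; TMM, filterByExpr, 1 fit of 6 libraries, group as the only term, Benjamini-Hochberg over all genes of a fit). The script was tested on simulated data. In neutrophil-like cells no member and in erythroid-like cells only Cd74 passed the filter, and these fits are not reported. The 2 B-cell parts were added at 15 cells a library after the cell counts were known. Alternatives were DESeq2 1.42.0, other normalization, filters, clustering and cell limits, and libraries left out. Intervals (Clopper-Pearson, 95%) and floors (3 counts) cover counting error only. Promoter windows are RefSeq's on GRCm38.p6; transcripts, from GENCODE vM21, were aligned with Biopython 1.88.

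Named genes were the 8 members, the called genes of the pathway list, up to 4 per comparison and class, and the 8 genes with the most similar pattern among those with at least 100 UMIs, of which 1 is not reported here. Pathway genes whose levels are described, and marker genes of the class II-rich cells, were chosen after their values were seen. No replicate number was used in the main fits: same-numbered libraries deviated together between some groups (r = 0.173 for SOD1-Nec and SOD1-Veh over all cells) and in opposite directions between others (-0.259 for SOD1-Nec and WT-Veh).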

Additional observations from a re-analysis of the deposited data

Results flagged for a closer look

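H2-Ab1 pointed in opposite directions in 2 pairs of classes, with libraries that did not overlap per 10000 UMIs. In CPM with TMM factors the mature B-like libraries did overlap, at 3075 and 3379 in SOD1-Nec against 2836 and 4148 in SOD1-Veh. In SOD1-Nec against SOD1-Veh its log2 fold change was -0.41 in mature B-like cells and 2.07 in microglia-like cells, a gap of -2.47. In SOD1-Nec against WT-Veh it was -0.79 in monocyte-like cells and 1.59 in microglia-like cells, a gap of -2.38. Neither difference between classes was tested, none of the 4 values passed the threshold, and the microglial values rest on 43 UMIs.

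Barcodes with at least 200 genes that were left out for their mitochondrial share also held class II RNA, at 0.77 UMIs per 10000 (70 UMIs in 1394 barcodes). By library this was 0.817 and 2.82 per 10000 in SOD1-Nec, 0.508 and 0.520 in SOD1-Veh, and 0.387 and 0.304 in WT-Veh. SOD1-Nec lay above both other groups, and SOD1-Nec 2 stood apart.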

How the results depend on the processing

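No member was called in any of the 21 fits. Of 213 counts of called members recomputed without leaving out a library, 205 stayed at 0. In microglia-like cells the count became 1 in SOD1-Veh against WT-Veh when class II genes were kept for clustering (Cd74, 2.57) and when doublets were kept (Cd74, 1.61). In SOD1-Nec against WT-Veh it became 1 under these settings (Cd74, 2.37; H2-Ab1, 1.79) and at 10% mitochondrial UMIs (Cd74, 2.21). Leaving out 1 library gave 0 to 1 calls in mature B-like cells and 0 to 4 in monocyte-like cells for SOD1-Nec against SOD1-Veh, 0 to 2 in monocyte-like and 0 to 1 in microglia-like cells for SOD1-Nec against WT-Veh, 0 to 2 in monocyte-like cells for SOD1-Veh against WT-Veh, and 0 elsewhere. In SOD1-Nec against SOD1-Veh the log2 fold change then ranged from -1.75 to -0.502 for Cd74 in mature B-like cells, and in monocyte-like cells from -1.88 to -0.104 for Cd74, from -2.24 to 0.126 for H2-Ab1 and from -2.61 to 1.1 for H2-Eb1. In SOD1-Nec against WT-Veh it ranged from -1.88 to 0.0471 for Cd74 in monocyte-like cells and from -1.09 to 0.301 for H2-Aa in B-like cells. In 19 of these 42 fits edgeR's prior degrees of freedom were infinite, against 9.42 to 55.3 in the 7 fits of all libraries, so the spread of each gene was drawn wholly to the fitted trend; the cause of the single calls was not tested.

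Means over the 6 libraries moved as follows. Keeping class II genes for clustering took the level per 10000 to 5.94 in monocyte-like cells (49.7 as reported) and to 5.46 in microglia-like cells (7.93), because the richest cells left these classes, and the share of positive mature B-like cells to 99.7% (92.2%). At 400 genes per cell the precursor B-like level was 8.62 (13.6) and the microglia-like share 42.4% (28.4%). Thinning to 500 UMIs gave shares of 23.2% (30.5%) in precursor B-like and 22.0% in microglia-like cells. Without the richest cell of each library the monocyte-like mean was 24.9.

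Same-numbered libraries correlated in their deviations between -0.259 and 0.173, positive between the SOD1-G93A groups over all cells and negative with WT-Veh, so the numbers were not taken to pair them. The replicate block left the count of called members at 0 in every fit. With the WT-Veh numbers crossed, chosen after seeing the data, the counts became 1 in B-like cells and 1 in monocyte-like cells for SOD1-Nec against WT-Veh and 3 in monocyte-like cells for SOD1-Nec against SOD1-Veh, and calls over all genes in all cells were 208, 103 and 53, against 63, 44 and 3. At 400 genes only all cells, cells other than B-like ones and microglia-like cells could be fitted. With 2 shallow libraries a group, an absent call does not show that levels were alike.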
